A study of Cricetulus griseus with 9 samples.

Results

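Foxs1 encodes a transcription factor of the forkhead family and is followed here as 1 of the 15557 genes in the deposited expression table, under the mouse Ensembl identifier ENSMUSG00000074676. It was chosen by its fold change in these same libraries, a rise over anti-miR-29a with both pre-miRs, so its values against anti-miR-29a are a description and have no test. The cells were CHO-K1, an established hamster ovary line, collected 48 h after lipid transfection. The groups of 3 libraries each are named for what was transfected, which was pre-miR-29b-1 or pre-miR-29a, synthetic precursors meant to raise those microRNAs, or else anti-miR-29a, an inhibitor described by the submitters as blocking miR-29a as well as miR-29b-1. Cells without a small RNA, or with a control one, were not analysed here, so a difference cannot be assigned to more miR-29 or to less. The series text speaks of separate transfection experiments, and if each held a single small RNA, experiment and group cannot be told apart. No label ties the libraries of a group to separate dishes or days. Every p-value sets a difference against the scatter of these libraries, and that scatter may be purely technical.

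Forkhead proteins bind DNA through a winged-helix domain shared by the whole family. In the mouse, Foxs1 is known from developing sensory neurons of the neural crest and from pericytes and other cells that surround small vessels. MicroRNAs of the miR-29 family pair through a shared seed with target mRNAs, often those of collagens and other matrix proteins, and lower their level or translation. Whether Foxs1 is a direct target of these microRNAs was not tested.

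The gene model of Foxs1 is a single coding exon of 990 bases, or 330 codons, on scaffold JH000311 of the hamster assembly CriGri_1.0, from 1121275 to 1122264 on the plus strand. It is the mouse protein aligned to the hamster genome, so untranslated regions lie outside it. Foxs1 had 1 model, none of whose bases lie in an exon of another gene. The deposited files carry identifiers without symbols, so the name rests on the identifier alone, and other forkhead genes, markers of pericytes and markers of the CHO-K1 line could not be looked up. Genome, protein and microRNA sequences were not used here.

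Foxs1 was highest in the pre-miR-29b-1 group, lower in the pre-miR-29a group and lowest in the anti-miR-29a group. With pre-miR-29b-1, the libraries numbered 1, 2 and 3 held 143.5, 134.8 and 116.5 FPKM. With pre-miR-29a they held 97.4, 95.5 and 85.3 FPKM. With anti-miR-29a they held 39.5, 27.1 and 27.3 FPKM. The 3 groups did not overlap, which held for 10.7% of the 9504 genes tested in some order, and for 1.35% in this order. All pre-miR libraries lay above all those of anti-miR-29a for 25.4% of the genes tested. The library closest to another group was pre-miR-29b-1 number 3, at 1.20-fold above the highest pre-miR-29a library. FPKM are fragments per kilobase of model and per unit of library size, as the authors scaled it.

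Foxs1 averaged 132 ± 13.8 FPKM in pre-miR-29b-1 libraries, 92.7 ± 6.50 FPKM in pre-miR-29a libraries and 31.3 ± 7.08 FPKM in anti-miR-29a libraries (SD, n = 3 each). The ratio of means was 4.21 for pre-miR-29b-1 over anti-miR-29a, and single libraries of these groups differed 2.95-fold to 5.29-fold. For pre-miR-29a over anti-miR-29a the ratio was 2.96, with 2.16-fold to 3.59-fold between single libraries. On the log2(FPKM + 1) scale these differences were 2.05 (SE 0.136) and 1.56 (SE 0.136). The anti-miR-29a libraries enter both differences, which are therefore not independent. In bulk RNA, more cells that express a gene and more RNA per cell cannot be told apart.

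**Figure D1:**
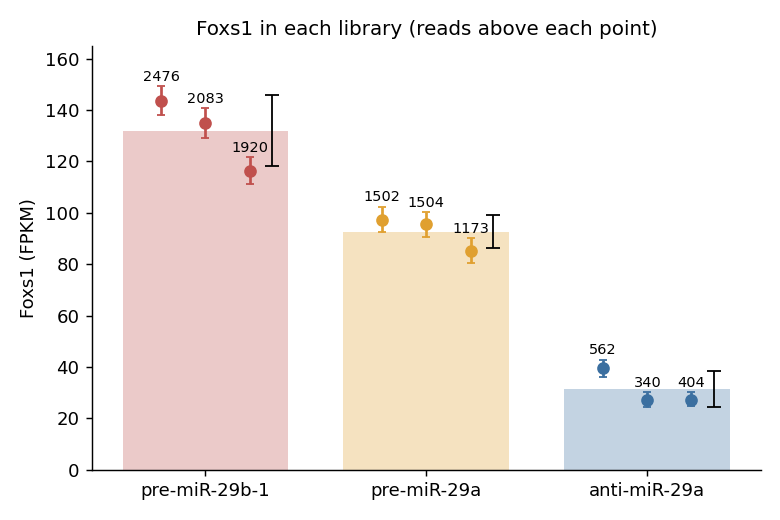
Foxs1 in FPKM (vertical axis, linear from 0) in the 9 libraries by group. Points are libraries with 95% Poisson intervals and their number of reads, bars are group means, and the black brackets are the SD of 3 libraries. All pre-miR-29b-1 points, from 116.5 FPKM, lie above all pre-miR-29a points, and these lie above the anti-miR-29a points, which reach 39.5 FPKM.

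The reads behind these values were many. Steps in the deposited values gave the whole number of reads per gene. For Foxs1 it was 2476, 2083 and 1920 in the pre-miR-29b-1 libraries, 1502, 1504 and 1173 in the pre-miR-29a libraries, and 562, 340 and 404 in the anti-miR-29a libraries. Library size, in the unit the FPKM were divided by, ranged from 15910000 to 21890000 reads. Counting error alone was at most 2.28% of the value for pre-miR-29b-1, 2.92% for pre-miR-29a and 5.42% for anti-miR-29a. The SD between libraries was larger, at 10.5%, 7.01% and 22.6% of the mean in the same groups. Reads had no molecular identifiers, so such intervals cover counting error only.

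Foxs1 varied more between libraries of a group than most genes did. Its residual SD on the log2 scale was 0.20, where the median of all 9504 genes tested was 0.09, and 91.6% of them had a smaller one. Among the 1904 genes within 1.5-fold of its mean of 85.2 FPKM, 97.4% had a smaller residual SD. The anti-miR-29a libraries were the least alike. Replicate 1 was the highest of them, with 95% Poisson limits, for counting error alone, of 36.3 and 42.9 FPKM. Without that library the log2 difference from anti-miR-29a was 2.23 for pre-miR-29b-1 and 1.73 for pre-miR-29a.

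Foxs1 was well expressed in these cells. Ordered by FPKM among all 15557 genes, it stood at ranks 1492 to 1859 from the top with pre-miR-29b-1. The ranks were 2229 to 2579 with pre-miR-29a and 4763 to 5789 with anti-miR-29a. With anti-miR-29a, 62.8% to 69.4% of genes lay below it, so it was clearly detected in that group too.

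The difference between the pre-miRs is the contrast that the choice of Foxs1 did not use, and with all 9 libraries in a model of the 3 groups it did not pass the test over all genes. Foxs1 was 1.42-fold higher with pre-miR-29b-1 than with pre-miR-29a by the ratio of means, in 3 of 3 libraries of each group without overlap. The log2 difference was 0.50 (SE 0.136, 95% interval 0.19 to 0.80), which is 1.14-fold to 1.74-fold. The unadjusted p was 0.0045 and the Benjamini-Hochberg adjusted p over 9504 genes was 0.22 (limma, two-sided). This SE pools the scatter of all 3 groups, and the anti-miR-29a libraries, which are not compared here, were the least alike. With only the pre-miR groups in the fit, the SE was 0.088 and the 95% interval 0.29 to 0.70. The unadjusted p was then 0.00054 and the adjusted p 0.307 (limma). A two-sided exact permutation test of Foxs1 alone gave p = 0.10, the smallest that the 20 regroupings of 3 against 3 libraries allow. The adjusted p was 0.00391 with library weights (limma), which put the log2 difference at 0.59, in a fit where 3627 of the genes tested passed. It was 0.0546 without pre-miR-29a replicate 1 (limma). With the replicate number as a block it was 0.0344 (limma), in a fit where 184 of the genes tested passed. The numbers were not taken to pair the libraries, although the data hint at it, as set out under the processing. In the fits plotted by setting, the difference stayed between 0.43 and 0.59, although several of these settings could not move it, as set out under the processing.

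These values are read against the whole table. At an adjusted p under 0.05, 0.0105% of the genes tested differed between the pre-miRs (limma), which is 1 gene of 9504, ENSMUSG00000031167 (log2 difference 0.78, SE 0.063), named after its values were seen. That number was 1378 without pre-miR-29a replicate 1. At an unadjusted p under 0.05 the share was 16.5%, and 18.9% had pre-miR groups without overlap in either direction, 10.2% with pre-miR-29b-1 on top as in Foxs1. A log2 difference at least as large as that of Foxs1, in either direction, was seen for 187 genes, or 1.97%.

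**Figure D2:**
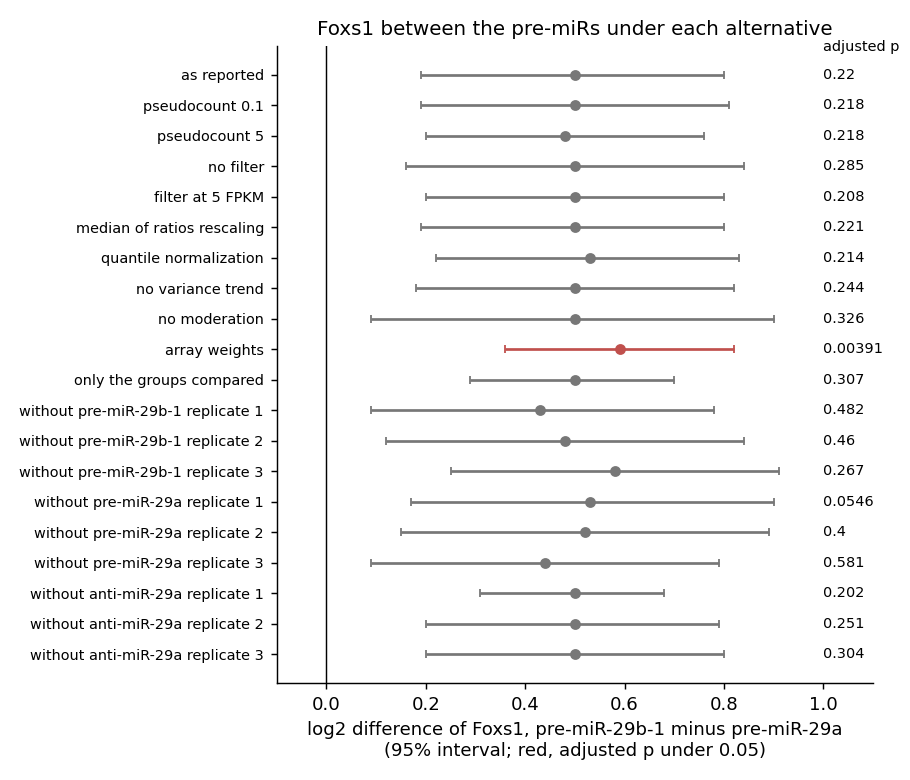
The log2 difference of Foxs1, pre-miR-29b-1 minus pre-miR-29a (horizontal axis), under the reported fit and each alternative fit that does not use the replicate number. Points are fitted differences and bars 95% intervals, with the adjusted p at the right. Every point lies between 0.43 and 0.59 and every interval lies above 0, while among the fits shown the adjusted p is under 0.05 with array weights alone. Settings that leave both pre-miR group means as they are, such as a change of filter or variance model, cannot move the point.

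Of the 9504 genes tested, 1020, or 10.7%, had no overlap between any of the 3 groups, in some order. The order of Foxs1, pre-miR-29b-1 above pre-miR-29a above anti-miR-29a, was seen for 128 genes, or 1.35%. The order with pre-miR-29a on top, then pre-miR-29b-1, then anti-miR-29a was seen for 390 genes, or 4.10%, and its reverse for 372 genes, or 3.91%. The reverse of the Foxs1 order was seen for 119 genes, or 1.25%. Since Foxs1 was chosen for the larger step, over anti-miR-29a, its place in this count is a description.

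Among genes that were higher with the pre-miRs, Foxs1 combined a large change with a high level. Over both pre-miRs its log2 difference from anti-miR-29a was 1.81 (SE 0.118), or 3.50-fold, the second highest of all genes tested. In that comparison 0.821% of the genes tested, 78 genes, were at least 2-fold higher with an adjusted p under 0.05 (limma), and Foxs1 is in this list by choice. By mean FPKM over the 9 libraries it ranked 7 of the 78, whose median was 10.1 FPKM. The list as a whole did not share its lean towards pre-miR-29b-1. Its median log2 difference, pre-miR-29b-1 minus pre-miR-29a, was -0.06, with 32 of the 78 genes higher with pre-miR-29b-1, and over all genes tested the median was -0.001. Foxs1 ranked 5 of the 78 by that difference. At an unadjusted p under 0.05 (limma), 18 of the 78, or 23.1%, differed between the pre-miRs, against 16.5% of all genes tested.

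Some genes next to Foxs1 on its scaffold rose and some fell, in shares near those of all genes tested. Of the 5 nearest genes with a model on each side, 10 in all and taken by position, 6 averaged at least 1 FPKM and were tested. Of these, 2 were higher and 2 lower with both pre-miRs than with anti-miR-29a (limma, adjusted p under 0.05), against 61.6% of all genes tested that changed, 29.3% higher and 32.3% lower. Their median log2 difference was 0.045, and that over all genes tested was -0.011.

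The nearest gene beyond the end of Foxs1 rose. Its model lies 10263 bases past that of Foxs1 and on the minus strand, so that the 2 genes point towards each other. It is a gene of 13 coding exons, and its level was low. It held 4.23, 3.83 and 4.08 FPKM in pre-miR-29b-1 libraries, 3.99, 5.27 and 4.47 FPKM in pre-miR-29a libraries, and 1.77, 1.83 and 1.16 FPKM in anti-miR-29a libraries. Every pre-miR library lay above the 3 anti-miR-29a libraries, while the pre-miR groups overlapped. The log2 difference of both pre-miRs from anti-miR-29a was 1.04 (SE 0.113, adjusted p 2.63e-05, limma). At such a low level the log2(FPKM + 1) scale understates the change. Its group means were 4.05 FPKM with pre-miR-29b-1, 4.58 FPKM with pre-miR-29a and 1.59 FPKM with anti-miR-29a. The values rested on 124 to 174 reads per pre-miR library and 36 to 53 reads per anti-miR-29a library. The library kit was stranded, but the strand setting used in counting is not given in the sources used here, so reads that run past the end of either gene could not be told apart from its own.

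The other neighbours differed by less and in both directions. On the other side, the closest gene ends 13522 bases before Foxs1, lies on the same strand and had 36.1 ± 1.25 FPKM in pre-miR-29b-1 libraries, 35.1 ± 5.39 FPKM in pre-miR-29a libraries and 32.0 ± 1.15 FPKM in anti-miR-29a libraries (SD, n = 3 each). Its log2 difference of both pre-miRs from anti-miR-29a was 0.14 (SE 0.079, adjusted p 0.14, limma). The gene 74.2 kb before Foxs1 fell by 0.51 on the log2 scale (SE 0.059, adjusted p 3.82e-05, limma), and the gene 99.7 kb beyond it, which like Foxs1 has a single coding exon, fell by 0.32 (SE 0.062, adjusted p 0.00126, limma). The gene 36.4 kb beyond Foxs1 rose by 0.30 (SE 0.059, adjusted p 0.00152, limma). The gene 195.4 kb beyond stood at -0.05 (SE 0.195, adjusted p 0.823, limma). The remaining 4 neighbours held at most 11 reads in any library.

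In RefSeq's hamster assembly CriGri-PICRH-1.0, the protein-coding genes on either side of Foxs1 are Dusp15, a protein phosphatase gene, and Mylk2, a myosin light chain kinase gene. The files do not pair their identifiers with these names, so which model is which gene was not determined.

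**Figure D3:**
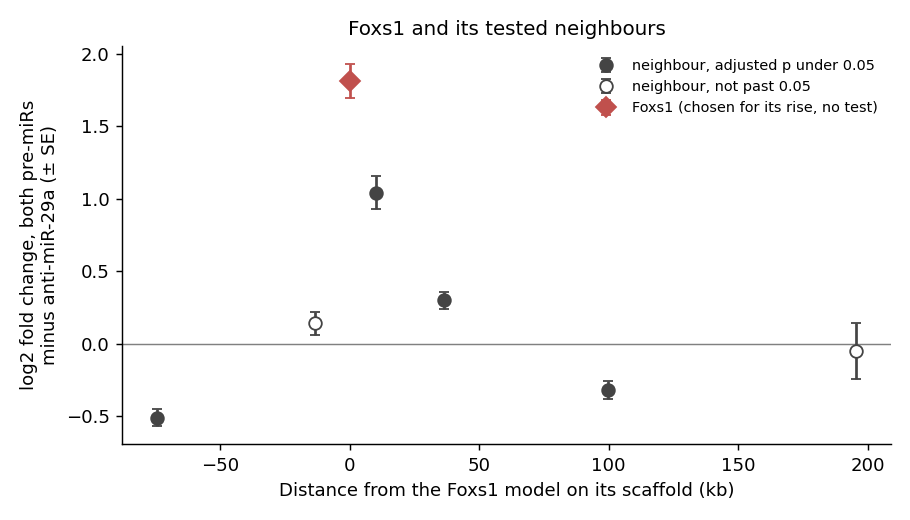
Log2 difference of both pre-miRs from anti-miR-29a (vertical axis, with SE) against the distance in kb from the Foxs1 model, for Foxs1 (diamond) and its 6 tested neighbours (circles, filled where the adjusted p was under 0.05). Foxs1 at 1.81 and the gene 10.3 kb beyond it at 1.04 stand above the others, which lie between -0.51 and 0.30. The log2(FPKM + 1) scale understates the change of the gene 10.3 kb beyond Foxs1, whose level was low.

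Genes whose profile over the 9 libraries was most like that of Foxs1 were found by the root mean square difference of log2(FPKM + 1) values, each gene less its own mean, among 8617 other genes that averaged at least 5 FPKM. The closest was ENSMUSG00000022096, at a difference of 0.208, where the median of all these genes was 0.91. It held 45.5 ± 2.59 FPKM in pre-miR-29b-1 libraries, 40.9 ± 2.78 FPKM in pre-miR-29a libraries and 14.0 ± 1.5 FPKM in anti-miR-29a libraries (SD, n = 3 each). The next was ENSMUSG00000037750, at 0.250, with 43.1 ± 6.68, 38.2 ± 5.51 and 14.5 ± 2.65 FPKM in the same groups. Between the pre-miRs their log2 differences were 0.15 (SE 0.082) and 0.17 (SE 0.147), smaller than the 0.50 of Foxs1, and the pre-miR groups overlapped. All 9 libraries entered the choice of these genes, so these differences are a description and have no test. ENSMUSG00000022096 has 18 coding exons on scaffold JH000034 and ENSMUSG00000037750 has 2 on JH002576, so neither is a neighbour of Foxs1.

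The profiles nearest to the mirror image of Foxs1 belonged to ENSMUSG00000027997, at 0.198, and ENSMUSG00000028873, at 0.212. ENSMUSG00000027997 held 16.2 ± 1.28 FPKM in pre-miR-29b-1 libraries, 17.5 ± 0.616 FPKM in pre-miR-29a libraries and 57.5 ± 4.69 FPKM in anti-miR-29a libraries (SD, n = 3 each). ENSMUSG00000028873 held 24.0 ± 1.71, 26.1 ± 2.92 and 83.7 ± 4.42 FPKM in the same groups. These genes were picked for their likeness to the pattern over all 9 libraries, so they have no test against anti-miR-29a or between the pre-miRs. Their log2 differences between the pre-miRs were both -0.11 (SE 0.076 and 0.083).

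**Figure D4:**
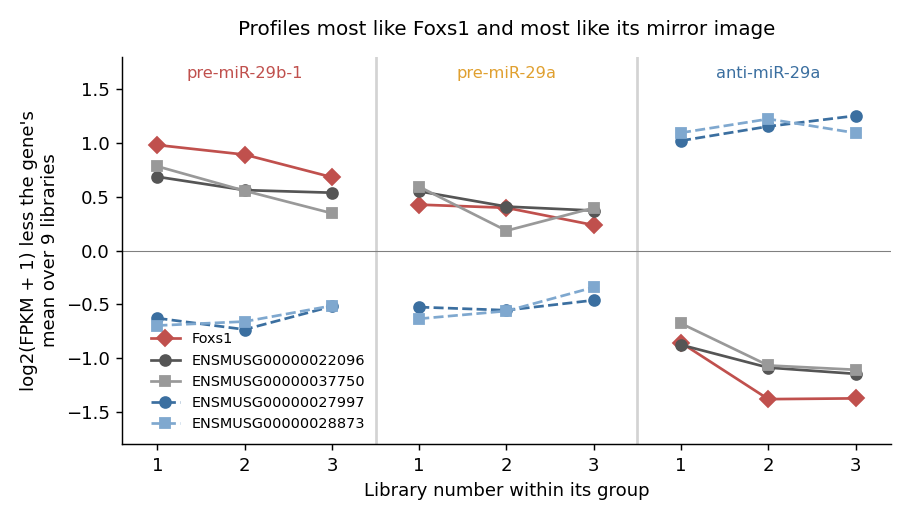
Log2(FPKM + 1) less each gene's mean over the 9 libraries (vertical axis) by library and group, for Foxs1, the genes closest to its profile (solid) and those closest to its mirror image (dashed). Foxs1 is the gene whose pre-miR-29b-1 values lie farthest above its pre-miR-29a values.

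Foxs1 is one of the genes with a single coding exon, and their shares are given beside those of other genes, with no test of the difference between these classes. Of 1818 genes with a single coding exon, 431 passed the filter on low values. Of these, 23.2% were higher and 26.7% lower with both pre-miRs than with anti-miR-29a (limma, adjusted p under 0.05), and of 8967 tested genes with several coding exons 29.6% were higher and 32.7% lower. The median log2 differences of these classes were -0.02 and -0.012. With quantile normalization 29% of the single-exon genes were higher. More of all genes tested changed in that fit, 6155 against 5857 in either direction. The share of genes with several coding exons was not computed for it. Of genes with a single coding exon 7 (1.62%) were at least 2-fold higher, Foxs1 among them, and of genes with several coding exons 71 (0.792%). At levels within 2-fold of the mean of Foxs1, 22.8% of 92 single-exon genes were higher, and 31.8% of 3058 genes with several coding exons.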

How the data were processed

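The authors deposited a table of FPKM per gene and library. The tools named in the submitters' processing notes are FastQC, TopHat2 (2.0.13) and Cuffnorm. How Cuffnorm scaled libraries or treated strand is not given in the sources used here. Per the labels' protocols, stranded mRNA libraries were made from 2 µg of RNA. Per the file headers, gene models are mouse Ensembl proteins aligned to CriGri_1.0, and their deposited exon coordinates give coding lengths (99.91% multiples of 3). No identifier matched the RefSeq table (0 of 15557).

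FPKM times coding length less 202 bases fell in whole reads: over 8586 genes of at least 700 bases with 1 model and no shared bases, 97.8% to 98.2% of the values between 1 and 1000 reads were whole to within 0.2. This offset was found from the values.

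limma 3.58.1 (R 4.3.3) was run on log2(FPKM + 1), a scale that understates changes of low genes, with a variance trend, for the 9504 genes averaging at least 1 FPKM. A single model with 3 group means was fitted to all 9 libraries, tests were two-sided and p-values were Benjamini-Hochberg adjusted at 0.05. The fit was tested on simulated data. Foxs1, its neighbours, the lists, tests and alternatives were chosen with earlier results of these data known. Genes named besides Foxs1 were the 2 nearest to its profile and the 2 nearest to its mirror image. ENSMUSG00000031167 is named outside this rule, with its values known. Alternatives changed the pseudocount, filter, scaling, variance model, weights, block and libraries. A forkhead and a pericyte list could not be applied without names.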

Additional observations from a re-analysis of the deposited data

How the results depend on the processing

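The difference of Foxs1 between the pre-miRs kept its direction under all 20 alternatives, at 0.43 to 0.59 on the log2 scale, and missed the adjusted threshold in 18 of them. It passed with array weights (0.59, adjusted p 0.00391, limma) and with the replicate block (0.50, adjusted p 0.0344, limma). Leaving out 1 library gave 0.43 to 0.58, with adjusted p of 0.0546 to 0.581 (limma). Several alternatives could not move the difference, because they leave both pre-miR group means as they are. These were the changes of filter, variance trend, moderation and block, the fit of only the groups compared, and the loss of an anti-miR-29a library. There it stayed at 0.50 by construction, and only its SE and p could change. Deviations from the group means correlated at -0.02 to 0.29 between libraries of the same number, over 0.1 in 6 of 9 pairs. Between libraries of different numbers they correlated at -0.28 to 0.09. Each of the 9 correlated best with one of its own number, a hint of pairing from the data and not from the design. No label ties the numbers across groups, so they were not taken to pair the libraries. Whether they do could not be settled here. The count of genes between the pre-miRs was 1. It was 184 under the replicate block, 3627 under array weights, 0 without moderation (1333 at an unadjusted p under 0.05, limma), 0 with only the groups compared (1295 unadjusted, limma), and 1 to 1378 without 1 library. Array weights ranged from 0.213 for pre-miR-29a replicate 1 to 3.54 for pre-miR-29a replicate 3. Against anti-miR-29a, Foxs1 stayed at 1.93 to 2.23 with pre-miR-29b-1 and at 1.44 to 1.73 with pre-miR-29a. Called genes for both pre-miRs numbered 5098 to 6894. With all genes on the scaffold, 10 of 16 tested neighbours changed, against 61.6% of all genes tested. Without a filter, 13.9% of 880 single-exon genes were higher. In that fit 6189 of all 13376 genes changed in either direction, and the share of them that were higher was not computed. The larger and smaller sets of genes follow from these settings, and otherwise the cause was not tested.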

Other observations

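The library numbered 1 held the highest Foxs1 value in each of the 3 groups. The same was seen for 1164 of the 9504 genes tested, or 12.2%, and for 1768 genes, or 18.6%, a library of the same number was the highest in every group. Within a number, the ratio of Foxs1 with pre-miR-29b-1 to pre-miR-29a was 1.47, 1.41 and 1.37.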
